A study of Mus musculus with 24 samples.

Results

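Excitation-contraction coupling and the Ca2+ store of the myotube were followed through 10 genes, namely Ryr1, Ryr3, Cacna1s, Cacnb1, Atp2a1, Atp2a2, Casq1, Casq2, Sln and Jph2. They were taken by symbol from the 55487 genes listed with normalized counts, and all 10 were found. Of these, 9 were among the 14541 genes abundant enough to be tested, and Sln was not. The libraries came from C2C12, a mouse skeletal muscle cell line of WT genotype, differentiated to myotubes under 5 % O2 and labelled Day5. In 5 % CTRL and 1 % CTRL the myotubes spent 2 h under 5 % or 1 % O2 without stimulation. In 5 % STIM and 1 % STIM they were electrically stimulated after the same exposure. The authors describe bouts of stimulation with rests between, a change of medium before and after, and RNA sampled directly after stimulation. Whether unstimulated myotubes had the same added time and medium changes is not stated, so this handling and stimulation cannot be told apart. Each of the 4 groups held 6 libraries, 24 in all, of bulk RNA from a single cell line, and the labels do not say whether replicates were grown on separate occasions, so that p-values measure the spread between these libraries only.

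In skeletal muscle an action potential running into the transverse tubule is sensed by the L-type Ca2+ channel, whose pore subunit Cav1.1 (Cacna1s) is brought to the membrane with its β1 subunit (Cacnb1) and gates the ryanodine receptor of the facing store mechanically. RyR1 (Ryr1) is the main release channel of the muscle fibre and RyR3 (Ryr3) a second one that is prominent in developing muscle, and junctophilin 2 (Jph2) tethers the store to the surface membrane so that the channels face each other. Ca2+ is bound inside the store by calsequestrin, of which Casq1 is the fast skeletal form and Casq2 the form of heart and slow fibres, and is pumped back by SERCA1 (Atp2a1, the fast skeletal pump) and SERCA2 (Atp2a2, the slow and cardiac pump), which the small peptide sarcolipin (Sln) inhibits.

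The libraries held 26541858 to 28173745 reads, and 100 % of the values above 0 in each came within 0.01 of a whole read once divided by the value of 1 read. In 2 libraries, replicate 5 of 5 % CTRL and replicate 3 of 5 % STIM, 1 read was worth within 1 % of 1 normalized count, so that whole and normalized counts are less easily told apart there. The summed normalized counts of 12 myotube markers lay between 500374 and 615735 in every library, whereas those of 8 markers of proliferating myoblasts lay between 4128 and 7266. Of the 12 myotube markers, 6 were lower and 0 higher under 1 % O2 at rest. Of all genes tested 59.9 % passed there, 30.5 % lower and 29.4 % higher. After stimulation 6 were likewise lower and 0 higher, where 57.4 % of all genes passed, 28.4 % lower and 29 % higher. Stimulation lowered 3 and raised 0 at each O2 level. At 5 % O2 it passed for 21.4 % of all genes, 12 % lower and 9.44 % higher. At 1 % O2 it passed for 22.3 %, 10.8 % lower and 11.5 % higher. On libraries rescaled to the same total the markers split into 4 higher and 3 lower at rest between O2 levels. After stimulation 1 was higher and 2 lower between O2 levels on that scale. Stimulation lowered 2 and raised 0 at each O2 level on the rescaled libraries. Of the 8 myoblast markers, 6 were higher and 1 lower in 1 % CTRL than in 5 % CTRL, and 3 higher and 1 lower in 1 % STIM than in 5 % STIM. With stimulation 4 were higher and 1 lower under 5 % O2, and 1 higher and 1 lower under 1 % O2. Of all genes 29.4 %, 29 %, 9.44 % and 11.5 % were higher in these comparisons, in that order. The rescaled libraries gave the same counts of myoblast markers. The list of 6 heart muscle markers summed to 2139 to 3773 normalized counts, nearly all from the myosin Myh6. Of the 6 markers 3 were tested. In each comparison of O2 levels 1 of these 3, not named here, was lower, and 0 were called for stimulation. Fewer myotubes and less RNA per myotube cannot be told apart in bulk RNA, and the part of these markers in the values of the 10 genes was not tested. The libraries of 1 % O2 were divided by larger size factors (1.02 to 1.05) than those of 5 % O2 (0.955 to 0.992). Rescaling the libraries to the same total instead raised the median log2 fold change of all genes tested to 0.08 in 1 % CTRL and 0.07 in 1 % STIM against 5 % O2, and turned 4271 genes higher and 4437 lower at rest into 5670 higher and 3378 lower. Small differences between O2 levels are therefore given on both scales. Replicate 1 of 1 % CTRL stood apart in how counts rose with transcript length, with a slope of 0.0945 on the log2 scale per doubling of exon length, against -0.0367 to -0.0125 in the other libraries of that group.

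RefSeq promoters were found for 7 of the 10 genes. The 250 bases before the start site (for Jph2 the first of 2 start sites) are shown for the gene that rose most under 1 % O2 and for the pair of genes that fell most and moved together, on build GRCm38.p6. Capitals mark the E-box, CANNTG, the letters read by muscle basic helix-loop-helix factors such as MyoD and myogenin. The Jph2 window is chr2:163397994-163398243 on the minus strand, that of Cacna1s chr1:136052561-136052810 on the plus strand and that of Atp2a1 chr7:126463074-126463323 on the minus strand.
Jph2: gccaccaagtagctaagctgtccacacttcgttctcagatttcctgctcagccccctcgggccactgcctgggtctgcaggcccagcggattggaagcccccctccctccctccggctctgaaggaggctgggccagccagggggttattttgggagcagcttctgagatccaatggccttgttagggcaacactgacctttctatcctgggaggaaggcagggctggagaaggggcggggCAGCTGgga
Cacna1s: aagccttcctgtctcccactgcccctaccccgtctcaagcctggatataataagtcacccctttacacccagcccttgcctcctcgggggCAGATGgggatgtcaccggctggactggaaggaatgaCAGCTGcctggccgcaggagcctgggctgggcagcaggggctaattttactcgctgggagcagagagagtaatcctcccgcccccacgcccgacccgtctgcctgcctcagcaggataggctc
Atp2a1: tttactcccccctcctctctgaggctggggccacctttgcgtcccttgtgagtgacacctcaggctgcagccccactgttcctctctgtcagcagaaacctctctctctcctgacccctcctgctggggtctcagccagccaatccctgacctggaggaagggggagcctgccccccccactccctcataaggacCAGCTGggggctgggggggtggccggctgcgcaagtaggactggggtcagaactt

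The E-box was found once before Jph2 and Atp2a1 and 2 times before Cacna1s, and 66.2 % of all 32851 promoters of this length held it, so its presence does not set these genes apart. The core letters bound by hypoxia-inducible factor, ACGTG or GCGTG on either strand, and these can overlap an E-box, stood in 38.6 % of promoters. They were found once before Cacna1s, once before Casq2 and once at 1 of the 2 start sites of Cacnb1, and these letters were not in the windows of Jph2, Atp2a1, Casq1 or Ryr1. The MEF2 motif, held by 2.92 % of promoters, was found before Casq2. Such matches describe the sequence and show no binding.

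Compared per kb of exon, the 10 genes spanned a wide range in 5 % CTRL. Casq2 had 11997 ± 462 normalized counts per kb (SD, n = 6 here and in the following values) and Atp2a1 had 11776 ± 281, and their libraries overlapped. Atp2a2 (6394 ± 187) and Casq1 (6347 ± 196) came next and likewise overlapped. Jph2 (2729 ± 176), Cacna1s (1825 ± 11.7), Cacnb1 (1024 ± 47.5), Ryr1 (669 ± 50.9) and Ryr3 (44.5 ± 2.96) followed without overlap between neighbours.

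**Figure D1:**
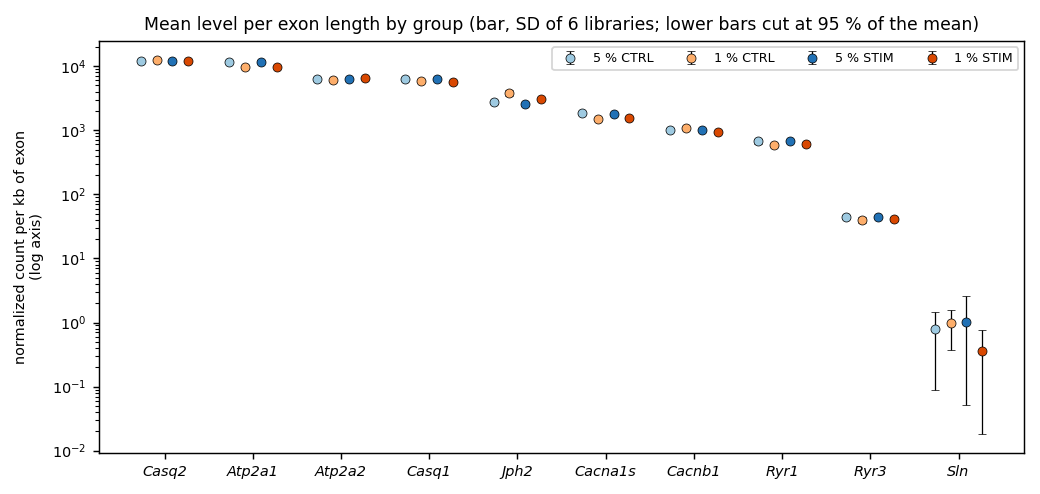
Mean normalized count per kb of exon (log axis) of the 10 genes in the 4 groups, with SD over 6 libraries. The store proteins Casq2 (11997) and Atp2a1 (11776) are at the top in 5 % CTRL, Ryr3 is at 44.5 and Sln lies at about 1 count per kb or below.

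Under 1 % O2 the neighbours in this order came apart. In 1 % CTRL the libraries of Casq2 lay between 11966 and 12805 counts per kb and those of Atp2a1 between 9133 and 10258, without overlap. In 1 % STIM the pair below separated as well, with Atp2a2 between 6350 and 6672 counts per kb and Casq1 between 5414 and 5832. The inhibitor of these pumps was at or near 0. Sln had 0 to 5 reads in every library, with 6 reads over the group of 5 % CTRL, 8 over 1 % CTRL, 8 over 5 % STIM and 3 over 1 % STIM. The other peptide inhibitor of the cardiac pump, phospholamban (Pln), had 0 to 10 reads in a library, and the cardiac release channel Ryr2 had 0 to 6. The group means of Sln lay below the floor of 3 counts, and no fold is given for it. Myoregulin (Mrln), the peptide that inhibits the pump in skeletal muscle, had means of 22.5 to 35.5 normalized counts in the 4 groups and was named after its values were seen. It was higher in 5 % STIM than in 5 % CTRL by 0.63 on the log2 scale (limma adjusted p = 0.0426) and lower in 1 % STIM than in 5 % STIM by -0.60 (adjusted p = 0.0219).

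After 2 h at 1 % O2 without stimulation, 7 of the 9 genes passed the test (limma, adjusted p under 0.05), 1 higher and 6 lower, where 59.9 % of all genes passed, 29.4 % higher and 30.5 % lower. Their median log2 fold change was -0.10, against 0.00 over all genes tested. On libraries rescaled to the same total, 5 passed, 3 higher and 2 lower. After stimulation, 6 of the 9 genes differed between 1 % STIM and 5 % STIM, 1 higher and 5 lower, where 57.4 % of all genes differed (29 % higher and 28.4 % lower), with a median of -0.11. On the rescaled libraries 5 passed, 2 higher and 3 lower. Jph2 higher and Cacna1s and Atp2a1 lower were called at rest and after stimulation and on either scale. Libraries of the O2 levels did not overlap for 4 genes at rest and 4 after stimulation, where 38.2 % and 37.3 % of all genes did not.

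**Figure D2:**
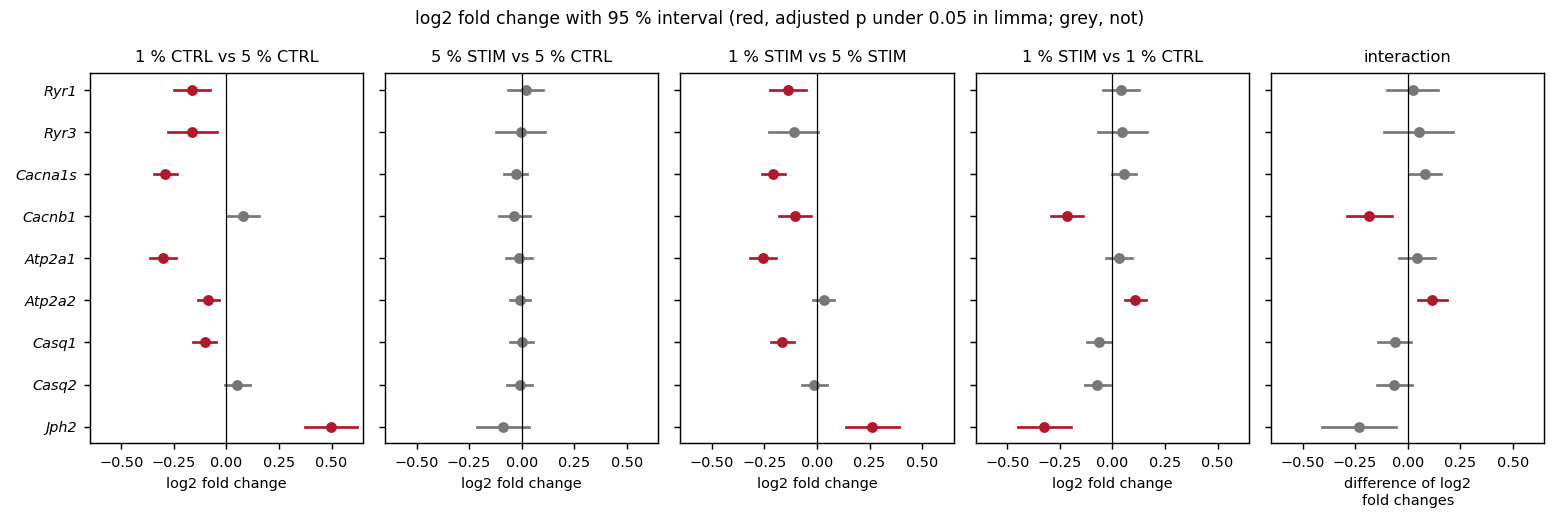
log2 fold change (dot) and 95 % interval (line) of the 9 tested genes in the 4 comparisons, and the difference between the responses to stimulation under 1 % and 5 % O2 (interaction). Jph2 lies at 0.50 and Atp2a1 and Cacna1s near -0.30 under 1 % O2 at rest, while every interval for stimulation under 5 % O2 spans 0. Calls between O2 levels with a size of 0.16 or less were lost on libraries rescaled to the same total.

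The pore subunit of the voltage sensor had less transcript under 1 % O2. Cacna1s had 11851, 11967 and 12045 normalized counts (lowest, median and highest library) in 5 % CTRL and 9201, 9898 and 9949 in 1 % CTRL. In 5 % STIM it had 11079, 11728 and 12403, and in 1 % STIM 9975, 10066 and 10729. Every library at 1 % O2 was thus below every library at 5 % O2, whether stimulated or not. The log2 fold change was -0.29 at rest (SE 0.03, limma adjusted p = 2.44e-11) and -0.21 after stimulation (adjusted p = 4.57e-08), which on the rescaled libraries became -0.21 and -0.14. All 6 libraries of 1 % STIM were above the 6 of 1 % CTRL, where 11.2 % of all genes did not overlap, yet the difference of 0.06 on the log2 scale did not pass the test (adjusted p = 0.149). It passed on the rescaled libraries, at 0.08 (adjusted p = 0.0199).

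Cacnb1, the subunit that carries the pore to the membrane, did not follow it. It had 4344, 4640 and 4900 normalized counts in 5 % CTRL and 4436, 4995 and 5094 in 1 % CTRL. In 5 % STIM the values were 4191, 4615 and 4721, and in 1 % STIM 3918, 4211 and 4464. The 4 highest of all 24 libraries belonged to 1 % CTRL and the 3 lowest to 1 % STIM, with overlap between the groups. At rest the difference between O2 levels was 0.08 on the log2 scale and missed the threshold (limma adjusted p = 0.0646). It passed without replicate 1 of 1 % CTRL, at 0.11 (adjusted p = 0.00718), and without replicate 1 or replicate 6 of 5 % CTRL. It also passed on the rescaled libraries, at 0.16 (adjusted p = 5.53e-04), and with array weights in limma, at 0.10 (adjusted p = 0.00563). In edgeR it passed narrowly, at 0.09 (adjusted p = 0.0489). Under 8 of 11 alternatives it stayed uncalled. Under 1 % O2, stimulation lowered Cacnb1 by a log2 fold change of -0.22 (SE 0.04, adjusted p = 2.92e-05), against -0.03 under 5 % O2 (adjusted p = 0.568). The difference between these responses, -0.18 (SE 0.05), passed the test of the interaction (adjusted p = 0.0200), with a range of adjusted p of 0.00221 to 0.0356 over the alternatives. In 1 % STIM against 5 % STIM Cacnb1 was lower, at -0.10 (adjusted p = 0.0180), but not on the rescaled libraries, at -0.03 (adjusted p = 0.484), nor without replicate 2 of 1 % STIM (adjusted p = 0.0643).

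The ratio of Cacnb1 to Cacna1s within each library does not depend on the scaling. On the log2 scale it was -1.37 ± 0.06 (SD, n = 6) in 5 % CTRL and -0.996 ± 0.09 in 1 % CTRL, and with stimulation -1.37 ± 0.10 at 5 % O2 and -1.27 ± 0.08 at 1 % O2. This ratio of transcripts was therefore higher by 0.37 at rest under 1 % O2. There Cacna1s was called lower in limma (-0.29), while Cacnb1 did not pass (0.08). For the ratio, a two-sided exact permutation test over 6 and 6 libraries gave an adjusted p of 0.00495. The smallest p that such a test can give is 0.00216, and p-values were adjusted over 16 ratio tests, of which 7 passed. Between 1 % STIM and 1 % CTRL the ratio differed by -0.27 (exact permutation test, adjusted p = 0.00495). Both differences use the libraries of 1 % CTRL and are not independent of each other. After stimulation the O2 levels differed by 0.10, which did not pass (exact permutation test, adjusted p = 0.152).

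The release channels showed smaller differences. Ryr1 had 13878, 14131 and 16788 normalized counts in 5 % CTRL and 12202, 12988 and 13840 in 1 % CTRL. After stimulation it had 14043, 14716 and 15585 in 5 % STIM and 11961, 13466 and 14583 in 1 % STIM. The groups of different O2 did not overlap at rest, the lowest library of 5 % CTRL lying just above the highest of 1 % CTRL, and they overlapped after stimulation. The log2 fold change was -0.16 at rest (SE 0.04, adjusted p = 0.00112) and -0.14 after stimulation (adjusted p = 0.00481), and on the rescaled libraries -0.08 (adjusted p = 0.0760) and -0.07 (adjusted p = 0.141), so that the call rests on the scaling.

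Ryr3 had 775, 832 and 925 normalized counts in 5 % CTRL and 649, 754 and 884 in 1 % CTRL. The stimulated groups had 787, 852 and 885 at 5 % O2 and 697, 784 and 867 at 1 % O2. The groups overlapped in each comparison. At rest the log2 fold change between O2 levels was -0.16 (SE 0.06, adjusted p = 0.0146), which did not pass without replicate 6 of 1 % CTRL, at -0.12 (adjusted p = 0.0644), or on the rescaled libraries, at -0.08 (adjusted p = 0.202). After stimulation it was -0.11 (adjusted p = 0.0989). With exon lengths of 21838 and 18977 bases, against a median of 4180 in the genes tested, Ryr1 and Ryr3 are the members most exposed to a trend with length. With that trend removed, the differences at rest were -0.12 (adjusted p = 0.00323) for Ryr1 and -0.13 (adjusted p = 0.0147) for Ryr3, and Ryr3 passed after stimulation as well, at -0.14 (adjusted p = 0.00818).

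No difference in the proportion of the release channels to each other passed the test. The log2 ratio of Ryr1 to Ryr3 was 4.11 ± 0.10 in 5 % CTRL and 4.11 ± 0.09 in 1 % CTRL, and after stimulation 4.13 ± 0.06 at 5 % O2 and 4.10 ± 0.06 at 1 % O2 (SD, n = 6). The differences between groups, from -0.03 to 0.02 on the log2 scale, were under the SD. Ryr1 and Ryr3 did not pass the test for stimulation under either O2 level.

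Jph2, the tether between store and surface membrane, had the largest log2 fold change of the 9 tested genes, on either scale and in both comparisons of O2 levels. After stimulation it was close in size to Atp2a1 (0.264 against -0.255). With the trend with exon length removed, Atp2a1 was the larger there (-0.265 against 0.254). Jph2 had 10193, 11781 and 12235 normalized counts in 5 % CTRL and 13184, 16944 and 17663 in 1 % CTRL. Values in the stimulated groups were 10243, 10757 and 11726 at 5 % O2 and 12204, 13221 and 13817 at 1 % O2. All libraries at 1 % O2 were above those at 5 % O2 of the same stimulation. In 1 % CTRL, 5 libraries lay between 16233 and 17663, while replicate 1 lay at 13184. That library also stood apart in its slope with exon length, and the part of this slope in its Jph2 value was not tested. With the trend with exon length removed from all libraries, the log2 fold change at rest was 0.49 (limma adjusted p = 3.19e-07).

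The rise of Jph2 under 1 % O2 was 0.50 on the log2 scale at rest (SE 0.06, adjusted p = 1.42e-07), a mean 41.5 % higher, and 0.26 after stimulation (SE 0.06, adjusted p = 6.01e-04), a mean 20.03 % higher. Without replicate 1 of 1 % CTRL it was 0.56 at rest (adjusted p = 2.82e-12). Under 1 % O2, Jph2 was lower in stimulated than in unstimulated myotubes, with a log2 fold change of -0.32 (SE 0.06, adjusted p = 2.57e-04), and under 5 % O2 the difference was -0.09 (adjusted p = 0.319). The interaction of -0.23 (SE 0.08) missed the threshold (limma adjusted p = 0.0811). It passed without replicate 1 of 1 % CTRL, at -0.30 (adjusted p = 8.92e-04), with array weights in limma, at -0.25 (adjusted p = 0.00778), and in DESeq2, at -0.24 (adjusted p = 0.0230).

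**Figure D3:**
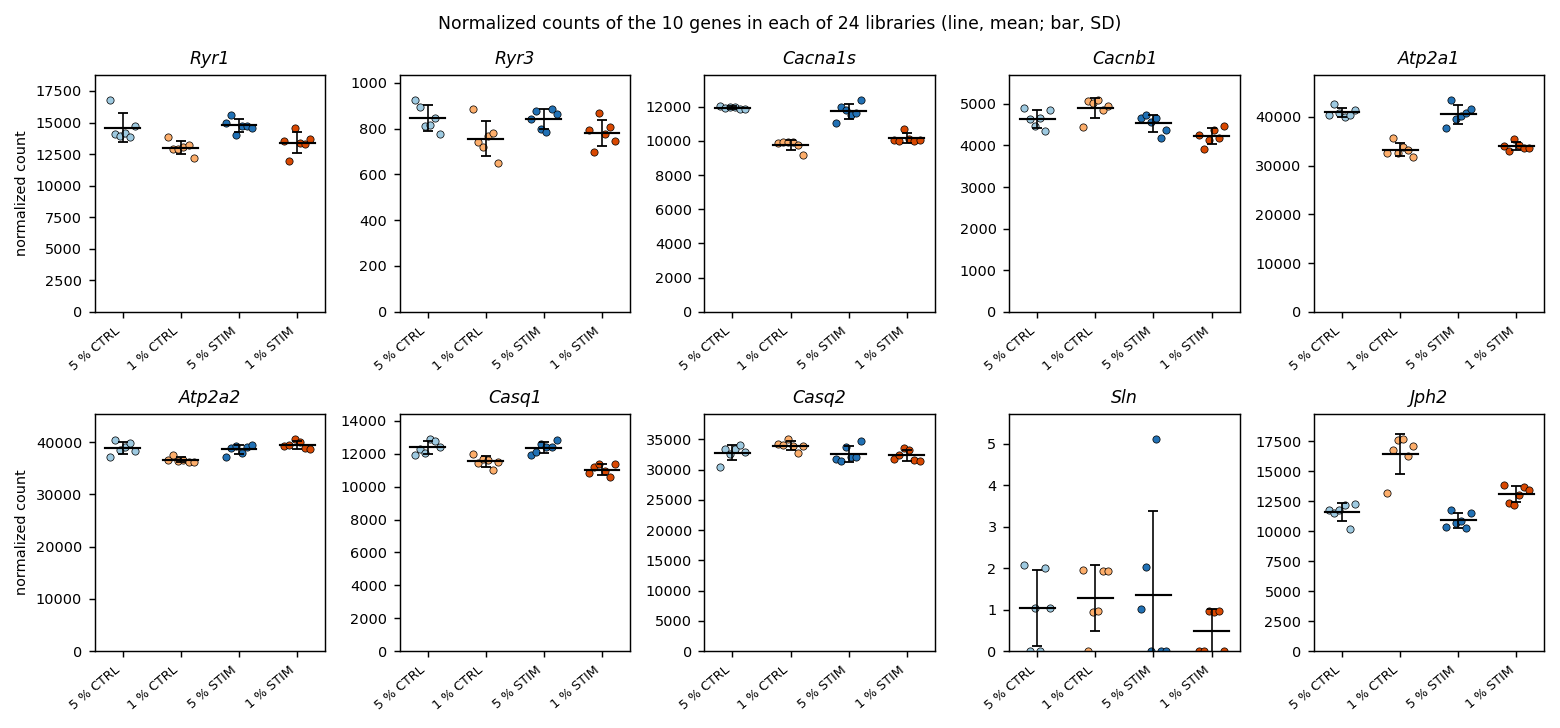
Normalized count of each gene in every library (points), with the mean (line) and SD (bar) of 6 libraries per group, on axes that start at 0. Jph2 is highest in 1 % CTRL, where 1 library lies at 13184 below the others. Cacna1s and Atp2a1 are lower in both groups at 1 % O2, and Sln lies between 0 and 5.11.

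Of the store pumps, SERCA1 transcript was lower under 1 % O2 and SERCA2 transcript was not lower by as much. Atp2a1 had 39923, 40616 and 42670 normalized counts in 5 % CTRL and 31755, 32944 and 35667 in 1 % CTRL. With stimulation it had 37750, 40541 and 43495 at 5 % O2 and 32931, 33842 and 35428 at 1 % O2. Libraries of the O2 levels did not overlap. The log2 fold change was -0.30 at rest (SE 0.03, adjusted p = 1.96e-10), a difference of -18.7 % in the means, and -0.26 after stimulation (SE 0.03, adjusted p = 7.62e-09), and it stayed at -0.22 and -0.18 on the rescaled libraries. Stimulation changed it by -0.01 under 5 % O2 and 0.03 under 1 % O2, neither of which passed the test.

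Atp2a2 had 37193, 38785 and 40363 normalized counts in 5 % CTRL and 36226, 36487 and 37559 in 1 % CTRL. Stimulated myotubes had 37225, 38915 and 39514 at 5 % O2 and 38617, 39391 and 40573 at 1 % O2. Resting myotubes at 1 % O2 were the lowest group, and stimulated ones at 1 % O2 lay above all 6 of them. At rest the log2 fold change was -0.09 (SE 0.02, adjusted p = 0.00242), but -0.01 on the rescaled libraries (adjusted p = 0.839). Stimulation raised Atp2a2 under 1 % O2 by 0.11 (SE 0.02, adjusted p = 8.15e-04), a mean 7.85 % higher, against -0.01 under 5 % O2 (adjusted p = 0.843). The interaction was 0.12 (SE 0.03, adjusted p = 0.0206), with a range of adjusted p of 0.00108 to 0.0446 over the alternatives. Between 1 % STIM and 5 % STIM the difference of 0.03 did not pass, and on the rescaled libraries it was 0.10 (adjusted p = 2.49e-04).

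The balance of the pumps moved in every comparison but that of stimulation under 5 % O2. The log2 ratio of Atp2a1 to Atp2a2 was 0.07 ± 0.04 in 5 % CTRL and -0.14 ± 0.04 in 1 % CTRL, and after stimulation 0.07 ± 0.05 at 5 % O2 and -0.22 ± 0.02 at 1 % O2 (SD, n = 6). It was above 0 in all 12 libraries at 5 % O2 and below 0 in all 12 at 1 % O2. The ratio fell by 0.21 at rest and by 0.29 after stimulation, each with the smallest p that the exact permutation test allows (adjusted p = 0.00495). It was lower in 1 % STIM than in 1 % CTRL by -0.08 (exact permutation test, adjusted p = 0.00495), which did not pass with the trend with exon length removed, at -0.07 (adjusted p = 0.0594). Under 5 % O2 stimulation left a difference of -0.00 (exact permutation test, adjusted p = 0.960).

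The Ca2+ buffers of the store differed in a similar way. Casq1 had 11944, 12336 and 12881 normalized counts in 5 % CTRL and 11015, 11545 and 11973 in 1 % CTRL. In 5 % STIM it had 11895, 12407 and 12849, and in 1 % STIM 10563, 11072 and 11378. The groups of different O2 overlapped by a single pair of values at rest and did not overlap after stimulation. The log2 fold change was -0.10 at rest (SE 0.03, adjusted p = 0.00155), lost on the rescaled libraries at -0.02 (adjusted p = 0.472), and -0.17 after stimulation (SE 0.03, adjusted p = 3.75e-06), kept there at -0.09 (adjusted p = 0.00207).

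Casq2 had 30468, 33144 and 34128 normalized counts in 5 % CTRL and 32740, 34013 and 35034 in 1 % CTRL. After stimulation it had 31462, 32027 and 34816 at 5 % O2 and 31414, 32101 and 33594 at 1 % O2. The 4 groups overlapped, and Casq2 passed no comparison. At rest the difference between O2 levels was 0.05 (95 % interval -0.01 to 0.11), and on the rescaled libraries 0.13 (adjusted p = 1.20e-04).

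The log2 ratio of Casq1 to Casq2 was -1.41 ± 0.04 in 5 % CTRL and -1.56 ± 0.02 in 1 % CTRL, and after stimulation -1.40 ± 0.03 at 5 % O2 and -1.55 ± 0.05 at 1 % O2 (SD, n = 6). It fell by 0.15 under 1 % O2 at rest and by 0.15 after stimulation, without overlap between O2 levels (exact permutation test, adjusted p = 0.00495 for each). With stimulation it differed by 0.01 under 5 % O2 and by 0.01 under 1 % O2, neither of which passed. Atp2a1 thus had less transcript relative to Atp2a2, and Casq1 relative to Casq2, under 1 % O2. These counts are totals per gene and do not separate the transcript forms of a gene. A change of muscle type was not tested.

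**Figure D4:**
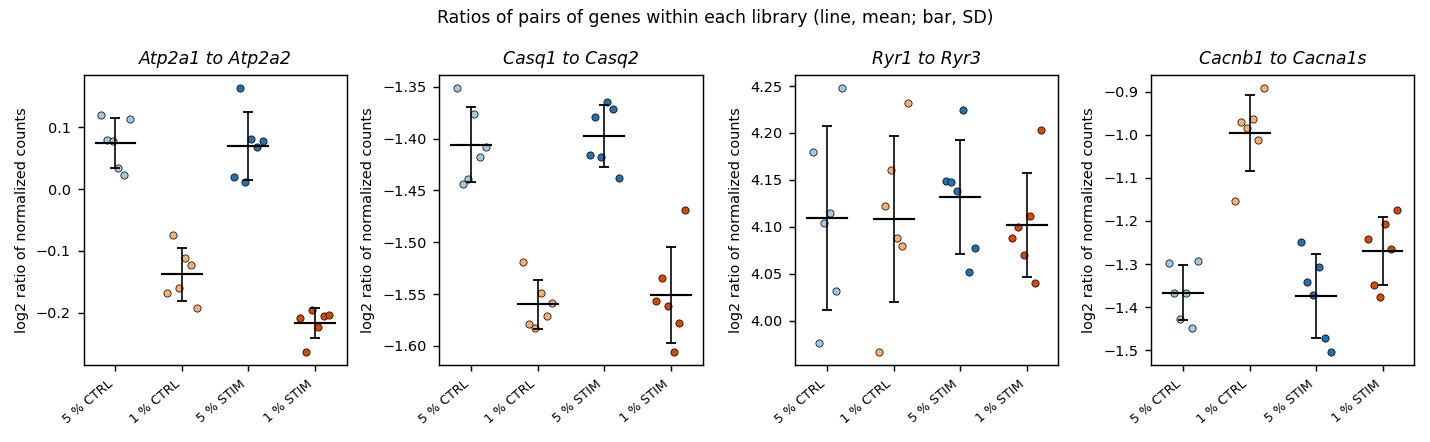
log2 ratio of normalized counts within each library (points) for 4 pairs of genes, with mean and SD of 6 libraries per group. Atp2a1 to Atp2a2 and Casq1 to Casq2 are lower at 1 % O2 in every library, Cacnb1 to Cacna1s is highest in 1 % CTRL, and Ryr1 to Ryr3 overlaps in all groups. The vertical axes do not start at 0.

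Stimulation under 5 % O2 moved none of the 9 genes past the threshold (limma), where 21.4 % of all genes passed, 9.44 % higher and 12 % lower. None had an unadjusted p under 0.05, and edgeR, DESeq2 and limma voom called 0 as well. Jph2 had the widest interval, from -0.21 to 0.03 on the log2 scale, and Atp2a2 the narrowest, from -0.06 to 0.04. Under 1 % O2, 3 of the 9 genes passed, Atp2a2 higher and Cacnb1 and Jph2 lower, where 22.3 % of all genes did, 11.5 % higher and 10.8 % lower. On the rescaled libraries Cacna1s joined them as higher, giving 2 higher and 2 lower. The response to stimulation differed between O2 levels for 2 of the 9, Cacnb1 and Atp2a2, where 11.3 % of all genes passed, 5.88 % with a positive and 5.43 % with a negative difference. The comparisons with 1 % CTRL share its libraries, so the rise of Jph2 at rest and its lower level after stimulation are not independent of each other. The same holds for the differences of Cacnb1 and of Atp2a2 in these comparisons.

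The other genes of the pathway were taken from a list of 89 genes in 9 roles, of which 86 were matched and 71 tested. At rest under 1 % O2, 44 of 71 passed (62.0 %), 16 higher and 28 lower, which is near the 59.9 % of all genes. After stimulation 44 of 71 differed between O2 levels, 9 higher and 35 lower, against 57.4 % of all genes. The split depends on the scaling, since on the rescaled libraries 27 were higher and 19 lower at rest and 16 higher and 25 lower after stimulation. Stimulation changed 11 genes under 5 % O2 (15.5 %, 7 higher and 4 lower), below the 21.4 % of all genes, and on the rescaled libraries 11 were higher and 3 lower. It changed 25 under 1 % O2 (35.2 %, 7 higher and 18 lower), against 22.3 % of all genes. The interaction passed for 12 (16.9 %), 1 higher and 11 lower, against 11.3 % of all genes. The count of 11 fell to 6 without a filter on low values and to 5 without replicate 3 of 5 % CTRL, and the count of 12 became 19 without replicate 1 of 1 % CTRL.

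**Figure D5:**
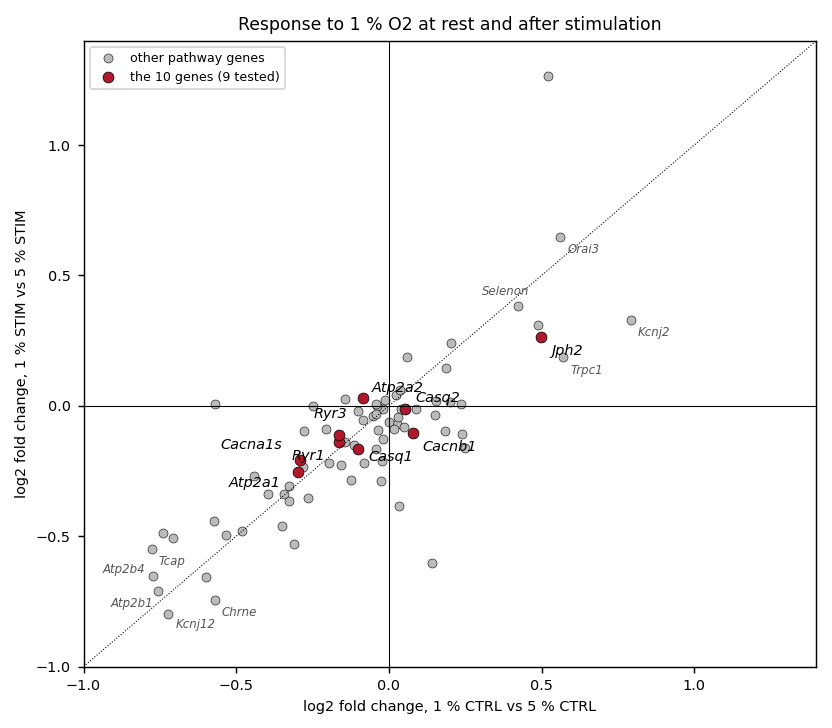
log2 fold change under 1 % O2 at rest (horizontal) against that after stimulation (vertical) for the 9 tested genes (red) and 71 other genes of the pathway (grey), with a dotted line where both are equal. Jph2 lies at the upper right among genes that rose and Cacna1s and Atp2a1 at the lower left, and the grey point at the top is Cacnb2, which has few counts (means of 28.1 in 1 % STIM and 11.7 in 5 % STIM) and was named after its value was seen.

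By role, the list of surface Ca2+ extrusion and cytosolic buffering had 5 of 10 genes tested, and these 5 were lower at rest under 1 % O2, where 30.5 % of all genes were lower, and 4 of them on the rescaled libraries. They were the Na+/Ca2+ exchangers Slc8a1 and Slc8a3, the cytosolic buffer parvalbumin (Pvalb), and the plasma membrane Ca2+ pumps Atp2b4 (log2 fold change -0.77) and Atp2b1 (-0.76). Of 7 genes of store-operated entry, 2 were higher and 4 lower, where 29.4 % and 30.5 % of all genes were, and 2 were higher and 3 lower on the rescaled libraries. The higher ones were the entry channel Orai3 (0.56) and the cation channel Trpc1 (0.57). Tcap, the titin cap protein of the Z-disc, was lower (-0.78), and the inward rectifier K+ channel Kcnj2 rose most (0.79). Kcnj2, Trpc1 and Orai3 had the 3 largest rises and Tcap, Atp2b4 and Atp2b1 the 3 largest falls of pathway genes whose higher mean reached 100.

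After stimulation the genes of surface excitability were lower under 1 % O2 in 12 of 15 cases and higher in 1, where 28.4 % of all genes were lower and 29 % higher. On the rescaled libraries 9 were lower and 2 higher. Kcnj12, a further inward rectifier, was lower by a log2 fold change of -0.80 and Chrne, the adult subunit of the acetylcholine receptor, by -0.74, and Atp2b1 was again lower (-0.71). Orai3 (0.65), the selenoprotein Selenon of the store membrane (0.38) and Kcnj2 (0.33) were higher. Kcnj2 was higher in stimulated than in unstimulated myotubes, by 0.74 under 5 % O2 and 0.28 under 1 % O2. Its interaction was -0.46 (limma adjusted p = 7.54e-04). In the same 2 comparisons Kcnj12 differed by -0.29 and -0.36. The handling of stimulated myotubes cannot be told apart from stimulation here either.

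Under 5 % O2, stimulation also raised Trpc1 (0.31) and the pump isoform Atp2a3 (0.29) and lowered the store K+ channel Tmem38b (-0.18). The call of Trpc1 was lost when any 1 of 6 libraries was left out, and that of Atp2a3 when any 1 of 8 was left out. Under 1 % O2 it lowered Homer1 (-0.36), a scaffold of release channels, and Scn4a (-0.34), the Na+ channel of the muscle action potential, with interactions of -0.41 (adjusted p = 2.30e-05) and -0.42 (adjusted p = 1.36e-06). The inositol trisphosphate receptor Itpr2 (0.21) and the Na+/Ca2+ exchanger Slc8a1 (0.21) were higher. The interaction of Slc8a1, 0.25 (adjusted p = 0.0399), was lost without a filter on low values (adjusted p = 0.0826) and when any 1 of 14 libraries was left out.

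Across the 24 libraries the pore subunit and the fast pump followed each other most closely. Pearson's r of log2 values was 0.96 between Cacna1s and Atp2a1, and 0.66 once the group means were removed, a description of libraries that share their size factor. Cacnb1 and Jph2 were related by 0.51 over all libraries and by 0.70 within groups. The release channels Ryr1 and Ryr3 were related by 0.81 and 0.70. Casq2 was related to Casq1 by 0.26 over all libraries and 0.70 within groups, and to Atp2a2 by -0.06 and 0.75.

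Over the same 24 libraries, the genes outside the list with the pattern most like that of Cacna1s were Morc2a, Ap4m1 and Mbd1 (r of 0.97 each). For Atp2a1 they included Pygm (0.97) and Fst (0.96), and for Jph2 they were Nab2 (0.97), Dynll1 (0.95) and Lims2 (0.94). Cacnb1 was closest to Klhl30 (0.93), Pygo2 (0.87) and Stac2 (0.86), and Casq1 to Clic5 (0.92), Patj (0.91) and Mylk4 (0.91). Atp2a2 was closest to Sema3d (0.82), Arid4b (0.81) and Efl1 (0.81), and Casq2 to Ccdc162 (0.73), Ildr2 (0.71) and Vdac3 (0.69). Ryr1 was closest to Lrp1 (0.93), Agrn (0.92) and Hspg2 (0.90), with exons of 17717, 9285 and 14307 bases, and Ryr3 to Col12a1 (0.89), Ubr4 (0.87) and Nfat5 (0.86), with 15228, 17997 and 18378. The genes nearest to the release channels were all far longer than the median, and the part of the length trend in these likenesses was not tested.

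Several of the 10 genes share exon sequence with a gene on the opposite strand, and the counting did not use the strand. Atp2a1 (chr7:126445858-126463108) overlaps Rabep2 over 21.9 % of its exon bases and Cacna1s (chr1:136052750-136119822) overlaps Gm37759 over 19.98 %, with smaller shares for Casq1 (7.996 %), Ryr3 (4.83 %), Ryr1 (4.19 %), Cacnb1 (1.77 %) and Atp2a2 (1.36 %), and none for Jph2, Casq2 and Sln. Rabep2 had group means of 426 to 512 normalized counts, against 33290 to 40946 for Atp2a1, and itself differed by -0.21 at rest (adjusted p = 0.00790) and -0.26 after stimulation (adjusted p = 0.00146). Gm37759 had means of 14.3 to 27.6, against 9777 to 11955 for Cacna1s. Reads in these overlaps cannot be told apart, and their part in the differences was not tested.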

How the data were processed

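RNA of C2C12 myotubes was measured in 24 libraries, 6 in each of 4 groups taken from the sample titles. The authors made stranded mRNA libraries, checked reads with FastQC 0.11.7, aligned them to GRCm38 with STAR 2.5.4b and estimated gene counts with RSEM 1.3.0 at default settings, which do not use the strand. The signal deposited by the authors is the count divided by the DESeq2 size factor of the library. A second table of the authors' own comparisons (log2 fold changes, mean expression, test statistics, p-values and calls from limma) was not used.

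Whole reads were recovered from the smallest step between values of a library and served for the count tests only. The test took in 14541 genes that reached a normalized count of 10 in 6 or more libraries. Reads per library ranged from 26541858 to 28173745, and each of the 10 genes but Sln rested on 669 or more reads in every library. Exon lengths and overlaps came from GENCODE M21, in which 55227 of the listed genes were found, and promoters from RefSeq.

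The log2(normalized count + 1) of all libraries entered 1 limma 3.58.1 fit (R 4.3.3, eBayes with trend and robust) without a replicate block, and fold changes are on this scale. Benjamini-Hochberg adjusted p-values under 0.05 over all genes tested were called. The interaction is the response to stimulation under 1 % O2 minus that under 5 % O2. Ratios of 2 genes within a library entered exact permutation tests, two-sided, of 6 against 6 libraries (scipy 1.17.1), 16 tests in all. A ratio of Sln to Atp2a1 was planned and left out because Sln lay at or near 0.

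The 10 genes and the lists of pathway and marker genes were chosen with earlier results of these data known. Pathway genes are named where they had the largest called changes, up to 3 in each direction of a comparison, given a mean of 100 or more in the group where it was higher, and for each of the 9 genes tested the 3 most alike outside the list. Cacnb2, Mrln, Slc8a3 and Pvalb were added after their values were seen, and some genes that the rule picked are not reported here. Alternatives were a pseudocount of 10, no filter, an adjusted p-value under 0.01, a replicate block, a fit of only the groups compared, rescaling of libraries to equal totals, array weights, removal of the trend with exon length (loess, span 0.4), edgeR 4.0.16, DESeq2 1.42.0, limma voom, the median in place of the mean for ratios, and leaving out each library. The fit was tested on simulated data. No pairing of the libraries by replicate number was seen.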

Additional observations from a re-analysis of the deposited data

Results flagged for a closer look

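In 6 of 52 sets of 6 libraries, 1 library lay apart from the other 5 by more than Dixon's critical value, where chance alone gives about 1 in 20. Ryr1 had 16788 normalized counts in replicate 1 of 5 % CTRL, against 13878 to 14737 in the others. Cacna1s had 9201 in replicate 6 of 1 % CTRL (others 9779 to 9949) and 10729 in replicate 3 of 1 % STIM (others 9975 to 10093). Atp2a2 had 37559 in replicate 2 of 1 % CTRL (others 36226 to 36590). Jph2 had 10193 in replicate 5 of 5 % CTRL (others 11499 to 12235) and 13184 in replicate 1 of 1 % CTRL (others 16233 to 17663).

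For 2 genes the response to stimulation differed between O2 levels by the limma test of the difference itself. It was -0.18 on the log2 scale for Cacnb1 (adjusted p = 0.0200), which was lower in stimulated than in resting myotubes in 6 of 6 libraries under 1 % O2 and in 3 of 6 under 5 % O2, each against the mean of the resting group. It was 0.12 for Atp2a2 (adjusted p = 0.0206), which was higher in 6 of 6 libraries under 1 % O2 and in 3 of 6 under 5 % O2. No cause was tested for any of these values.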

How the results depend on the processing

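The number of the 9 genes called in each comparison stayed within 1.5 times its value under the alternatives tried, except that the interaction had 0 calls in place of 2 at an adjusted p under 0.01. The genes behind these numbers and their directions were less stable. On the rescaled libraries the O2 levels at rest gave 3 higher and 2 lower, in place of 1 higher and 6 lower. After stimulation they gave 2 higher and 3 lower, in place of 1 higher and 5 lower. Pathway genes called for stimulation under 5 % O2 went from 11 to 6 without a filter and to 5 at an adjusted p under 0.01, and those of the interaction from 12 to 21 with array weights and to 7 at an adjusted p under 0.01. Leaving out single libraries gave 5 to 14 and 11 to 19 for these counts.

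Changes of sign touched differences that did not pass the test. For stimulation under 5 % O2, rescaled libraries gave log2 fold changes of 0.027 for Ryr3, 0.0039 for Cacna1s, 0.018 for Atp2a1, 0.022 for Atp2a2, 0.031 for Casq1 and 0.023 for Casq2, and for Casq2 in 1 % STIM against 5 % STIM 0.058. Removing the trend with exon length gave 0.010 for Ryr3 and 0.0033 for Atp2a2 under 5 % O2, -0.014 for Ryr1 and -0.0017 for Ryr3 under 1 % O2, and interactions of -0.047 and -0.012 for the latter pair. Casq1 under 5 % O2 was 1.0e-04 with array weights, 0.0037 in edgeR and in limma voom, and 6.3e-04 in DESeq2.

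Without single libraries, the stimulation effects under 5 % O2 ranged from -0.029 to 0.023 for Ryr3, -0.034 to 0.0073 for Atp2a1, -0.022 to 0.0020 for Atp2a2, -0.011 to 0.011 for Casq1 and -0.030 to 0.0028 for Casq2. Casq2 in 1 % STIM against 5 % STIM ranged from -0.023 to 0.0068, and the interaction of Ryr1 from -0.017 to 0.056. Among the ratios with stimulation under 5 % O2, Cacnb1 to Cacna1s was 0.010 by the median, and Casq1 to Casq2 was -0.0091 with the length trend removed. With that trend removed, Ryr1 to Ryr3 was 5.7e-04 at rest between O2 levels, and Atp2a1 to Atp2a2 in 1 % STIM against 1 % CTRL was -0.068 and no longer passed. Without single libraries, under 5 % O2 Atp2a1 to Atp2a2 ranged from -0.023 to 0.0074, Cacnb1 to Cacna1s from -0.032 to 0.019 and Ryr1 to Ryr3 from -0.0043 to 0.050. Ryr1 to Ryr3 ranged from -0.028 to 0.027 at rest between O2 levels and from -0.034 to 0.019 with stimulation under 1 % O2, where Casq1 to Casq2 ranged from -0.0076 to 0.020. The causes were not tested.

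No pairing of the libraries by replicate number was seen: of 36 pairs with the same number, 2 had a correlation of deviations above 0.1, from -0.148 to 0.155, and 9 were the best match of their library. Such a check can miss a weak pairing. With the number as a replicate block, 7, 0, 6, 3 and 2 of the 9 genes were called in the 4 comparisons and the interaction, the same counts as without it. Sln, at 0 to 5 reads per library, is where depth limits the data.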
